A study of Mus musculus with 16 samples.

Results

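The receptors that carry Wnt signals into the cell were examined in the calvaria (skull vault) of mice with altered Axin2 and Runx2. All probes annotated to Fzd1, Fzd2, Fzd4, Fzd7, Fzd8, Lrp4, Lrp5, Lrp6, Ror1 and Ror2 were taken, which gave 10 genes and 11 probes among 16593 named genes and 25697 probes. Only Fzd4 had more than 1 probe. RNA came from male mice at postnatal day 7, with 1 mouse per single-colour bead array. A-KO:R-Het mice (4 arrays) lacked Axin2 and carried 1 functional Runx2 allele, A-KO mice (3 arrays) lacked both copies of Axin2, R-Het mice (4 arrays) carried 1 functional Runx2 allele with Axin2 intact, and WT mice (4 arrays) were wild type. The labels name no Cre line, strain or conditional allele, so the defects are taken as present in all cells of the piece, which also holds suture, marrow and adhering tissue. Another A-KO array, replicate 2, is labelled as damaged and was left out.

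Frizzled proteins are the membrane receptors that bind Wnt ligands through a cysteine-rich domain. Lrp5 and Lrp6 are co-receptors that, together with a Frizzled, hold Axin at the membrane and so free beta-catenin from degradation. Ror1 and Ror2 are tyrosine kinase-like receptors that bind Wnt5a and are known for signalling without beta-catenin, and Lrp4 binds the bone Wnt inhibitor sclerostin and helps it to restrain bone formation. Axin2 is a feedback inhibitor in the complex that degrades beta-catenin, and the transcription factor encoded by Runx2 is required by osteoblasts. The comparisons ask how the expression of the receptors differs when this inhibitor, an allele of this bone regulator, or both are missing.

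Ror2 was the receptor whose difference passed the test, and the promoters of Fzd1 and Fzd7 are shown beside its own because these genes had the smallest unadjusted p in A-KO:R-Het relative to A-KO. RefSeq promoter entries of assembly GRCm38.p6 were matched for 5 of the 10 genes, namely Fzd1, Fzd4, Fzd7, Ror1 and Ror2. The 250 bases before the annotated start are given 5′ to 3′ on the strand of the gene, at chr13:53286125-53286374 (minus) for Ror2, chr5:4758217-4758466 (minus) for Fzd1 and chr1:59481897-59482146 (plus) for Fzd7, and capitals mark a match to a TCF/LEF word, the letters read by the DNA-binding partners of beta-catenin.
Ror2: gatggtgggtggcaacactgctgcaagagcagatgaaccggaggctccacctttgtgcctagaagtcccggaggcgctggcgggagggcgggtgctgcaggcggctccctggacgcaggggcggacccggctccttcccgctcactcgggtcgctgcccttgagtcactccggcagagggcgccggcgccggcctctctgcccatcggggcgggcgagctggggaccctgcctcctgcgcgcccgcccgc
Fzd1: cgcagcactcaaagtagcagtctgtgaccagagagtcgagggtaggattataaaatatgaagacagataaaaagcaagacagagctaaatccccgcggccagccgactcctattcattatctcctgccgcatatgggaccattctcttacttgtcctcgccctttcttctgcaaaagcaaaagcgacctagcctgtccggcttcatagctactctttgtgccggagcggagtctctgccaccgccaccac
Fzd7: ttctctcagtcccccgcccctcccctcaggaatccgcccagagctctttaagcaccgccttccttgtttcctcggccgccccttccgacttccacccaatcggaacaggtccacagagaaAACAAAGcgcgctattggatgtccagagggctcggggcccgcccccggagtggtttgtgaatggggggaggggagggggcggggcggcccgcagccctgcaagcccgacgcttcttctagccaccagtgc
The words searched on both strands were the word CTTTGAT, the word CTTTGAA, the word CTTTGTT and the word CTTTGTA for TCF/LEF, and the word TGTGGT for runt-domain factors. A TCF/LEF word lay in the Fzd7 window, 130 to 124 bases before the start on the opposite strand, and a runt word lay in the Ror1 window, 96 to 91 bases before the start. Neither kind of word was in the windows of Ror2, Fzd1 or Fzd4. Among all 32851 promoter entries, 14.8% held a TCF/LEF word and 14.0% a runt word in a window of this length, and a match describes letters only. The Ror2 window was 73.2% G or C with 24 CG pairs and the Fzd1 window 51.2% with 12, against a median of 52.4% and 6 pairs over all entries. The Fzd4 window was 72.8% with 25 pairs, the Fzd7 window 65.2% with 17 and the Ror1 window 62.4% with 8, so a high share was not particular to Ror2.

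The deposited values are normalized intensities, given here as log2. Array medians of intensity ran from 92.9 to 95.5, and the array left out had the lowest mean correlation with the others, 0.949. A gene was tested when a probe of it lay above the array median on at least 3 arrays, which kept 9918 genes, and 9 of the 10 receptors passed. Lrp4 stood at the 94.2th percentile of its array (median over arrays), Ror2 at the 85.8th, Fzd7 at the 83.5th, Fzd1 at the 81.6th, Fzd2 at the 78.3th, Lrp5 at the 71.6th, Fzd8 at the 60.9th and Lrp6 at the 57.4th. These positions describe probe brightness and do not rank the genes by abundance. One Fzd4 probe lay at the 49.7th percentile, above the array median on 7 of 15 arrays, and the other at the 23.5th percentile, above it on 0 arrays. The Ror1 probe lay at the 17.7th percentile, above the median on 0 arrays, so Ror1 was not among the genes tested and is given from a fit to all probes. All 8 osteoblast markers on the array passed the filter. Their mean ran from 12.34 to 12.40 in A-KO:R-Het, 12.39 to 12.74 in A-KO, 12.48 to 12.55 in R-Het and 12.31 to 12.73 in WT. This mean was bright in every genotype, though the dimmest of the 8 averaged 7.78 in A-KO:R-Het and 8.35 in WT. In A-KO:R-Het relative to WT, limma called 0 of the 8, with a median change of -0.11. In bulk tissue, fewer cells of a type and less RNA per cell cannot be told apart.

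Ror2 had a log2 intensity of 9.22, 9.31, 9.28 and 9.54 in A-KO:R-Het calvaria, 9.13, 9.13 and 9.32 in A-KO, 9.37, 9.17, 9.12 and 9.06 in R-Het, and 8.82, 8.79, 8.66 and 9.15 in WT. Every A-KO:R-Het array lay above every WT array, although WT replicate 4 came close to the lowest of them, and all other pairs of genotypes overlapped. Ror2 is a Wnt5a receptor of skeletal progenitors and cartilage in mice, and its loss shortens the limbs and face. It rose 1.40-fold in A-KO:R-Het calvaria relative to WT, a log2 change of 0.48 ± 0.11 (standard error, as for all changes here; limma adjusted p = 0.033, n = 4 and 4). Both single defects gave higher means than WT without passing the threshold, at 0.33 ± 0.12 in A-KO (adjusted p = 0.24) and 0.32 ± 0.11 in R-Het (adjusted p = 0.345). The order of the genotype means was A-KO:R-Het at 9.34 ± 0.14, A-KO at 9.19 ± 0.11, R-Het at 9.18 ± 0.13 and WT at 8.86 ± 0.21 (SD), and neighbours in this order overlapped.

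The Ror2 change was near the same size on both chips, at 0.46 on chip 1 and 0.50 on chip 2, each with 2 arrays per genotype and neither past the threshold alone (adjusted p = 0.645 and 0.326). With chip as a block the adjusted p was 0.0417. The call lay near the threshold, and whether it was passed depended on which of the compared arrays were fitted. It was lost when replicate 2, 3 or 4 of A-KO:R-Het was left out (limma adjusted p = 0.0622, 0.0778 and 0.111) and when replicate 1, 2 or 3 of WT was (adjusted p = 0.0881, 0.0837 and 0.103). Leaving out WT replicate 4 gave 0.0161. Over the 28 other settings the change ran between 0.40 and 0.58, and all of them kept its direction.

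**Figure D1:**
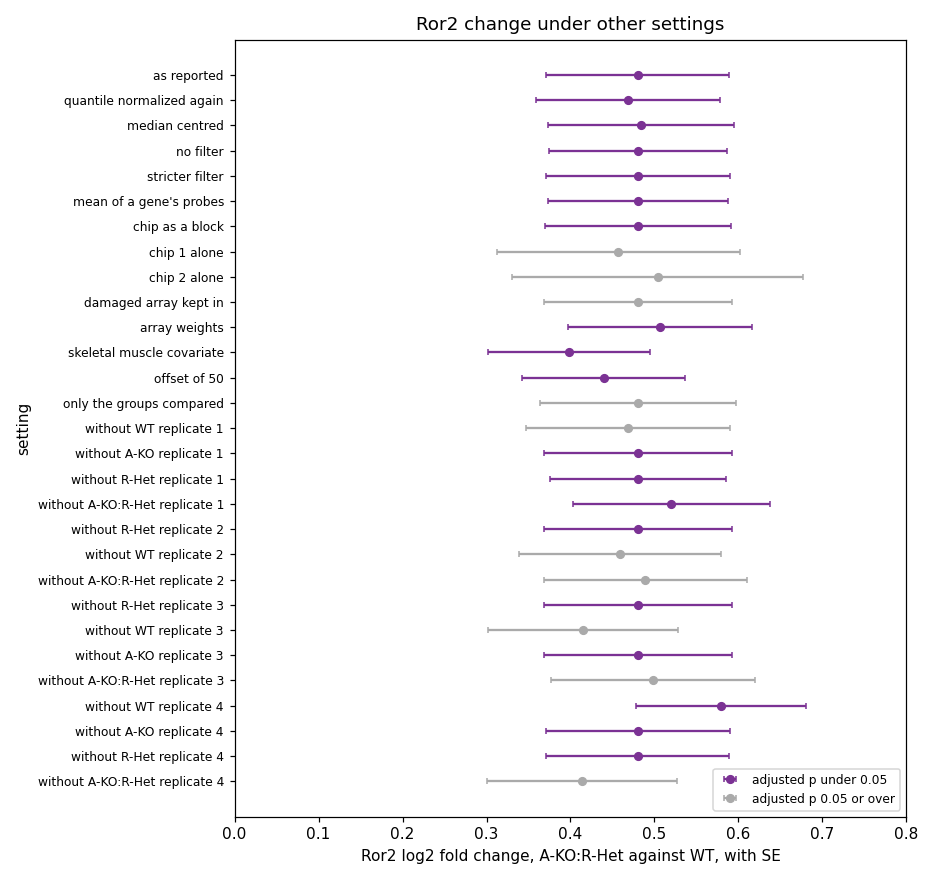
Log2 fold change of Ror2 in A-KO:R-Het against WT (x axis, with standard error) as reported and under each other setting (y axis); purple points have an adjusted p under 0.05 and grey points do not. The change stays between 0.40 and 0.58, while the call is lost when any of 6 of the 8 arrays compared is left out.

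Ror1, the closest relative of Ror2, did not pass the test, and its probe was dim. Its level ran between 5.88 and 6.23 over the 15 arrays, and all genotypes overlapped. In the fit to all 25697 probes the change in A-KO:R-Het relative to WT was 0.02 ± 0.09, with a 95% interval of -0.17 to 0.22 (limma adjusted p = 0.968). In the same fit Ror2 stood at 0.48 ± 0.11 (adjusted p = 0.0402), and it was the only one of the 11 receptor probes called there, where 0.708% of all probes were.

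Among the Frizzled genes, the members of the closely related subfamily of Fzd1, Fzd2 and Fzd7 had the largest differences in A-KO:R-Het relative to WT and relative to A-KO, and none of them passed the test. Relative to WT, the Fzd7 change of 0.18 ± 0.13 was little above the Fzd8 change of 0.15 ± 0.11. Fzd2 read 8.52, 8.85, 8.72 and 8.54 in A-KO:R-Het calvaria, 8.12, 8.28 and 8.25 in A-KO, 8.51, 8.36, 8.57 and 8.53 in R-Het, and 8.37, 7.33, 8.06 and 8.33 in WT. All A-KO:R-Het arrays lay above all WT and all A-KO arrays, all R-Het arrays lay above all A-KO arrays, and WT replicate 2 was lowest by a wide margin. Fzd2 is a receptor for canonical Wnts as well as Wnt5a. Its change in A-KO:R-Het relative to WT was 0.63 ± 0.17, the largest value among the receptors, and it missed the threshold (limma adjusted p = 0.0729). In R-Het relative to WT it was 0.47 ± 0.17 (adjusted p = 0.391), and in A-KO relative to WT 0.19 ± 0.18 (adjusted p = 0.712). Without WT replicate 2 the A-KO:R-Het change was 0.40 and the R-Het change 0.24, while the A-KO change turned to -0.04.

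Fzd1 read 8.88, 8.94, 8.82 and 8.98 in A-KO:R-Het calvaria, 8.63, 8.57 and 8.56 in A-KO, 8.71, 8.90, 8.99 and 8.58 in R-Het, and 8.67, 8.67, 8.47 and 8.77 in WT. The A-KO:R-Het arrays lay above all A-KO and all WT arrays, and the R-Het arrays spanned both ranges. Fzd1, which can transduce canonical Wnt signals, differed by 0.26 ± 0.09 in A-KO:R-Het relative to WT (limma adjusted p = 0.198). Relative to A-KO it differed by 0.32 ± 0.10 (adjusted p = 0.21).

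Fzd7, a receptor of stem and progenitor cells in several tissues, read 8.95, 9.20, 9.18 and 8.99 in A-KO:R-Het, 8.42, 8.88 and 8.87 in A-KO, 8.73, 8.66, 8.90 and 9.06 in R-Het, and 9.11, 9.01, 8.69 and 8.80 in WT. Its A-KO:R-Het arrays lay above all A-KO arrays and overlapped those of WT and R-Het. The change was 0.36 ± 0.14 relative to A-KO (limma adjusted p = 0.337) and 0.18 ± 0.13 relative to WT (adjusted p = 0.598).

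Fzd8 and Fzd4 did not pass the test in any comparison. Fzd8, which binds canonical Wnts, ran between 6.59 and 7.26, with means of 7.02 ± 0.17 in A-KO:R-Het, 6.99 ± 0.06 in A-KO, 7.07 ± 0.14 in R-Het and 6.87 ± 0.20 in WT (SD). Fzd4, a receptor of the retinal vessel ligand norrin as well as of Wnts, ran between 6.38 and 6.71 on its brighter probe, which entered the test, and between 5.93 and 6.34 on the other. Relative to WT, the 95% interval of the A-KO:R-Het change was -0.09 to 0.28 on the brighter probe, and -0.27 to 0.12 on the dimmer one in the fit to all probes. The estimates had opposite signs, at 0.10 and -0.07, and both intervals held 0.

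**Figure D2:**
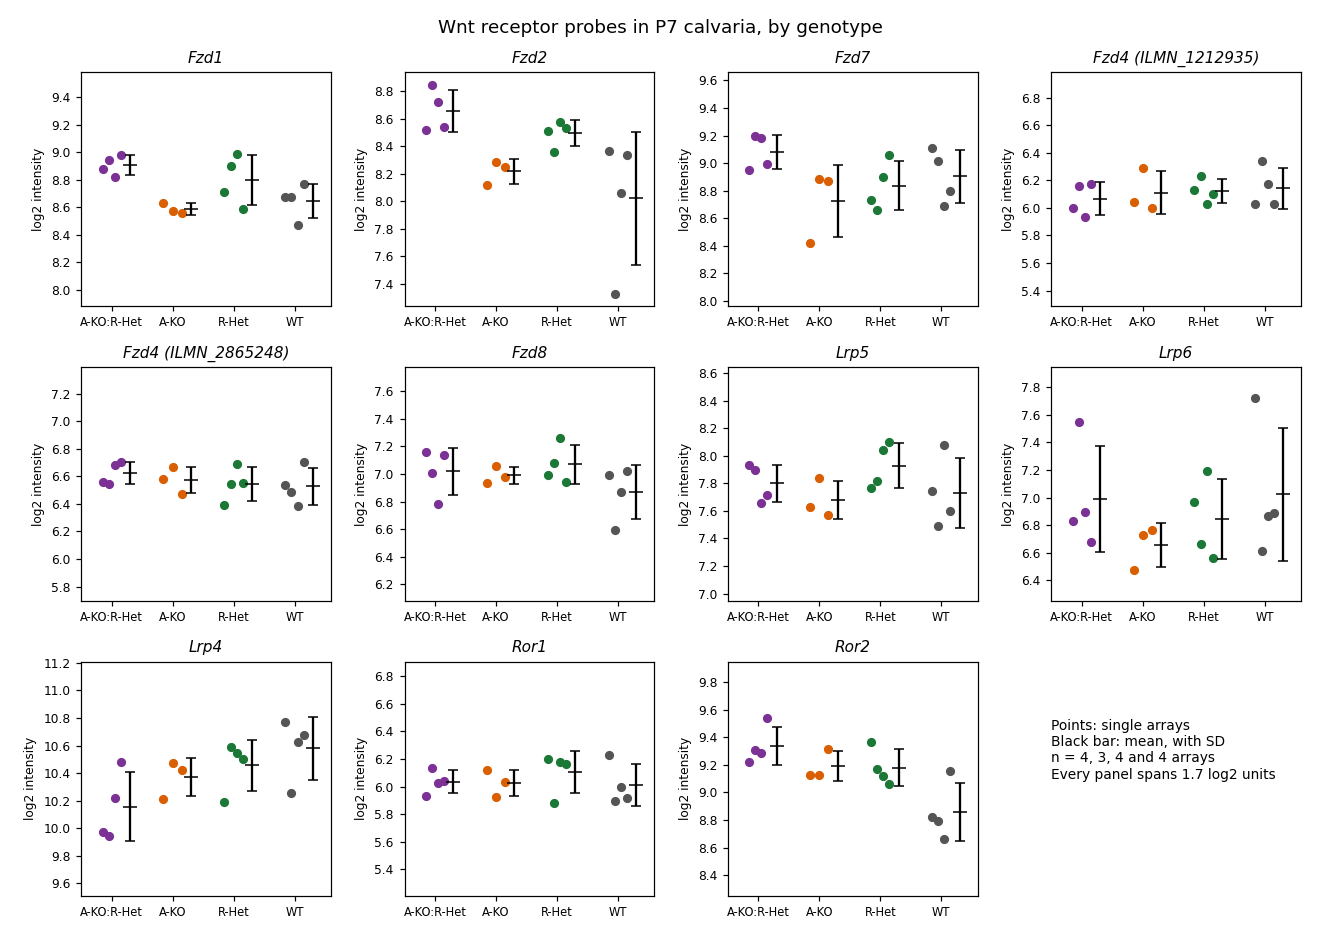
Log2 intensity (y axis) of the 11 receptor probes on each array, by genotype (x axis, from A-KO:R-Het to WT); points are arrays and black bars the mean with SD (n = 4, 3, 4 and 4). Ror2, Fzd2 and Fzd1 have all A-KO:R-Het points above all WT points, Fzd2 has 1 WT point far below the others, at 7.33, and Ror1 and both Fzd4 probes lie flat between 5.88 and 6.71.

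No LRP gene passed the test in any comparison. Lrp4 read 9.97, 9.95, 10.22 and 10.48 in A-KO:R-Het calvaria, 10.21, 10.47 and 10.43 in A-KO, 10.19, 10.59, 10.54 and 10.50 in R-Het, and 10.77, 10.25, 10.62 and 10.68 in WT. A-KO:R-Het replicates 1 and 2 were the lowest of the 15 arrays, while replicates 3 and 4 lay among the other genotypes, so that the range overlapped that of each. Its change in A-KO:R-Het relative to WT was -0.43 ± 0.14, with a 95% interval of -0.72 to -0.14 (limma adjusted p = 0.14). Split by chip, the same arrays gave -0.55 on chip 1, which held A-KO:R-Het replicates 1 and 2, and -0.30 on chip 2. The means, in rising order, were 10.15 ± 0.25 in A-KO:R-Het, 10.37 ± 0.14 in A-KO, 10.46 ± 0.18 in R-Het and 10.58 ± 0.23 in WT (SD), and neighbours overlapped.

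Lrp5, mutations of which change bone mass in people and mice, had means of 7.80 ± 0.13 in A-KO:R-Het, 7.68 ± 0.14 in A-KO, 7.93 ± 0.16 in R-Het and 7.73 ± 0.25 in WT (SD). Its change in A-KO:R-Het relative to WT was 0.07, with a 95% interval of -0.19 to 0.33. Lrp6, the co-receptor required for most canonical Wnt signalling in the embryo, had the largest spread within genotypes of the receptor probes, with a pooled SD of 0.36. It read 6.83, 7.55, 6.89 and 6.68 in A-KO:R-Het and 7.72, 6.61, 6.87 and 6.89 in WT, so that 1 high array in each group set the spread. The 95% interval of the A-KO:R-Het change, -0.51 to 0.44, leaves room for changes in both directions.

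Read as a group, 1 of the 9 tested receptors was called in A-KO:R-Het relative to WT, against 1.89% of the 9918 genes. An unadjusted p under 0.05 was reached by 4 of the 9 (Ror2, Fzd1 and Fzd2 higher, Lrp4 lower), against 13.7% of genes, and the arrays did not overlap for 3 of the 9, all higher, against 4.48% of genes that were higher without overlap. The median change of the 9 was 0.15, beside 0.01 over all genes. The genes were chosen with earlier results of these arrays known, so these shares are a description. In A-KO relative to WT, limma called 0 of 9, against 0.313% of genes, 1 (Ror2) had an unadjusted p under 0.05, against 12.7%, and the median was -0.05. In R-Het relative to WT it called 0 of 9, against 0.0504% of genes, 2 (Ror2 and Fzd2) had an unadjusted p under 0.05, against 9.24%, and the median was 0.15. These 3 comparisons share the WT arrays.

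**Figure D3:**
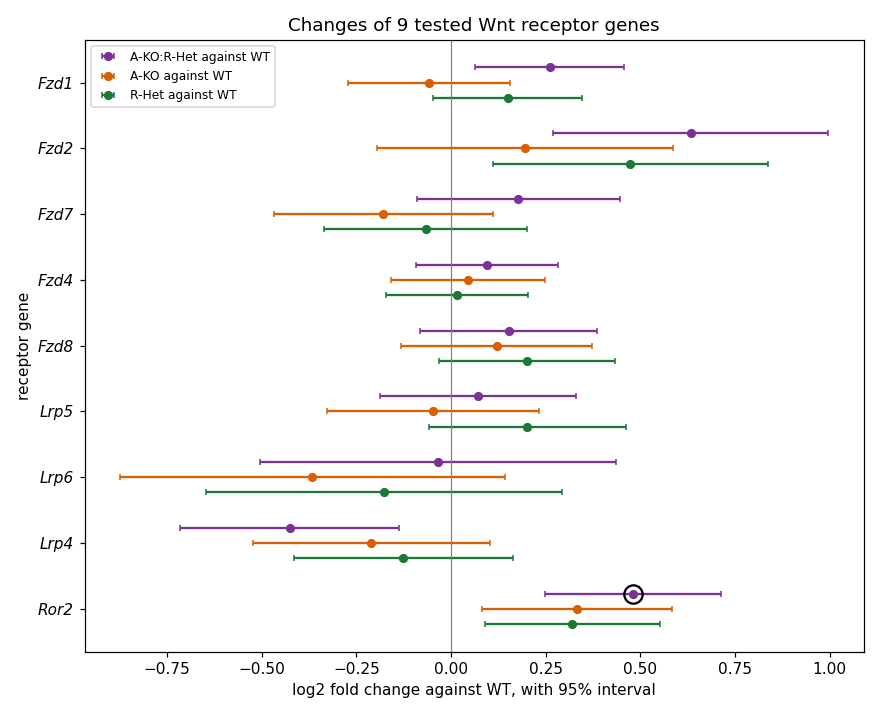
Log2 fold change against WT (x axis, with 95% interval) of the 9 tested receptor genes (y axis) in A-KO:R-Het (purple), A-KO (orange) and R-Het (green). A ring marks the value past the adjusted threshold, Ror2 in A-KO:R-Het at 0.48, and Lrp4 and Lrp6 lie below 0 in all 3 comparisons, with an interval clear of 0 only for Lrp4 in A-KO:R-Het.

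The effect of losing a Runx2 allele where Axin2 is absent is the comparison of A-KO:R-Het with A-KO. Here limma called 0 of 9 receptors, against 0.555% of genes, and 3 (Fzd1, Fzd2 and Fzd7) had an unadjusted p under 0.05, against 10.8%. The arrays of the genotypes did not overlap for the same 3 Frizzled genes, all higher, against 5.84% of genes. The median change was 0.15, beside -0.0009 over all genes, and the changes ran from -0.22 for Lrp4 to 0.44 for Fzd2. Averaged over both Axin2 states, the loss of a Runx2 allele went with 0.46 ± 0.13 for Fzd2 (limma adjusted p = 0.0856), 0.23 ± 0.07 for Fzd1 (adjusted p = 0.111) and 0.23 ± 0.08 for Ror2 (adjusted p = 0.2). In this averaged comparison 0 of 9 were called, against 1.63% of genes, while 3 had an unadjusted p under 0.05, against 12.6%. The count was 1 without WT replicate 2, where Fzd2 stood at 0.34 (adjusted p = 0.0367), and 1 without R-Het replicate 4, where Fzd1 stood at 0.27 (adjusted p = 0.0398).

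Axin2 loss in mice with 1 functional Runx2 allele, the comparison of A-KO:R-Het with R-Het, gave 0 of 9 calls with limma, against 0% of genes, and 1 receptor, Lrp4 at -0.30 ± 0.14, had an unadjusted p under 0.05, against 6.46%. Averaged over both Runx2 states, Axin2 loss went with 0.25 ± 0.08 for Ror2 (limma adjusted p = 0.186) and -0.26 ± 0.10 for Lrp4 (adjusted p = 0.272), and 0 of 9 were called, against 0.645% of genes, with 2 at an unadjusted p under 0.05, against 13.6%. The interaction asks whether Axin2 loss acts differently when a Runx2 allele is missing. It was called for 0 of 9 receptors, against 0% of genes, and 1, Fzd7 at 0.42 ± 0.19, had an unadjusted p under 0.05, against 6.16% (limma adjusted p = 0.788). For Ror2 it was -0.17 ± 0.16, with a 95% interval of -0.51 to 0.17.

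Other genes of the pathway were counted from 5 lists. Of 15 tested among other receptors and co-receptors, such as Fzd6, Ryk and the R-spondin receptor Lgr5, 0 were called in any of the 8 comparisons, and their median in A-KO:R-Het relative to WT was 0.14. Lgr5 had the smallest unadjusted p of that list, at 0.88 ± 0.24 (limma adjusted p = 0.074). Of 14 receptor regulators and transducers, Rspo3, an R-spondin ligand that keeps Frizzled and Lrp6 at the cell surface, rose by 0.53 ± 0.11 in A-KO:R-Het relative to A-KO (adjusted p = 0.0435) and by 0.31 ± 0.07 in the averaged comparison of Runx2 allele loss (adjusted p = 0.0432). It was the single member of that list called in any comparison. In A-KO:R-Het relative to WT it stood at 0.31 ± 0.10 (adjusted p = 0.147). Both Rspo3 calls lay near the threshold. They were lost in 10 and 11 of the 15 fits that left out 1 array, with an adjusted p of up to 0.194 and 0.11. Among the other settings they were lost in 5 of 13 and 5 of 12, each chip alone, chip as a block and the damaged array kept in among them, with an adjusted p of up to 0.631 and 0.581.

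Of 9 tested Wnt ligands and secretion genes, Wnt10a rose by 0.67 ± 0.13 in A-KO:R-Het relative to WT (limma adjusted p = 0.0162) and by 0.57 ± 0.10 in the averaged comparison of Axin2 loss (adjusted p = 0.0134), with 0 others called. Wnt5a, the ligand of Ror2, stood at -0.13 ± 0.11 in A-KO:R-Het relative to WT (adjusted p = 0.673) and was named for that role after its value was seen. Of 11 secreted antagonists, Dkk3 rose by 0.58 ± 0.11 in A-KO:R-Het relative to WT (adjusted p = 0.0155). Notum, an enzyme that strips the lipid from Wnts, rose by 0.53 ± 0.09 with averaged Axin2 loss (adjusted p = 0.0149) and fell by 0.45 ± 0.09 with averaged Runx2 allele loss (adjusted p = 0.0212). Of 9 targets and feedback genes, Ccnd1 rose by 0.60 ± 0.11 in A-KO relative to WT (adjusted p = 0.0434), and it stood at 0.33 ± 0.11 in A-KO:R-Het (adjusted p = 0.14). Of the 15 fits that left out 1 array, the call was lost in 7 for Ccnd1, 4 for Dkk3, 3 and 1 for Wnt10a, and 1 and 2 for Notum, with an adjusted p of up to 0.261 for Ccnd1 and up to 0.0635 for the others. Among the 12 or 13 other settings it was lost in 5 for Ccnd1, 2 for Dkk3 (each chip alone), 3 and 3 for Wnt10a, and 3 and 3 for Notum (each chip alone and the damaged array kept in, for both genes), with an adjusted p of up to 0.642.

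Markers of some other cell types differed between the same genotypes as Ror2. Genes said to rise or fall here were called in A-KO:R-Het relative to WT, where 1.89% of all genes were called. In that comparison limma called 0 of 5 erythroid, 0 of 2 skin, 0 of 1 brain and nerve and 0 of 15 skeletal muscle genes. The mean of 9 of 10 fibrous matrix genes, 2 of which rose in A-KO:R-Het relative to WT, ran from 11.29 to 11.47 in A-KO:R-Het, 11.13 to 11.24 in A-KO, 11.40 to 11.43 in R-Het and 11.07 to 11.19 in WT. For 12 of 15 cartilage genes, 4 of which rose, it ran from 9.29 to 10.19 in A-KO:R-Het, 8.46 to 8.66 in A-KO, 9.29 to 9.55 in R-Het and 8.33 to 9.38 in WT. In A-KO:R-Het relative to A-KO, limma called 8 of the 12 higher and 0 lower, against 0.555% of genes. With averaged Runx2 allele loss it called 9 higher and 0 lower, against 1.63% of genes. The genes listed as meningeal were Igfbp2, Mgp, Ptgds, Slc6a13, Foxc1 and Zic1, and whether they mark meninges alone was not tested. The mean of 4 of these 6, 3 of which rose, ran from 10.78 to 10.94 in A-KO:R-Het, 10.44 to 10.63 in A-KO, 10.35 to 10.72 in R-Het and 10.28 to 10.47 in WT. The mean of 8 of 9 osteoclast genes, 4 of which fell, was 9.42 to 9.47 in A-KO:R-Het, 9.75 to 9.91 in A-KO, 9.45 to 9.62 in R-Het and 9.85 to 9.97 in WT. The mean of 6 of 7 B cell genes, 1 of which fell, was 6.99 to 7.33 in A-KO:R-Het, 6.34 to 6.68 in A-KO, 7.31 to 8.08 in R-Het and 7.48 to 8.02 in WT. In A-KO relative to WT, limma called all 6 lower, against 0.313% of genes. The mean of 7 of 8 endothelial genes averaged 8.96 in A-KO:R-Het, 9.16 in A-KO, 9.01 in R-Het and 9.24 in WT, with all A-KO:R-Het arrays below all WT arrays. None of these genes was called by limma, and 4 had an unadjusted p under 0.05, against 13.7% of all genes. Intensities on these arrays are never 0, so no marker is absent by that measure. Apart from skeletal muscle, whose mean was entered as a covariate, the part of these markers in the receptor results was not tested. The mean of 15 skeletal muscle genes ranged from 7.52 to 10.48 in A-KO:R-Het, 8.48 to 10.42 in A-KO, 7.56 to 11.63 in R-Het and 9.10 to 11.55 in WT. With their mean as a covariate Ror2 changed by 0.40 ± 0.10 in A-KO:R-Het relative to WT (limma adjusted p = 0.0469).

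The genes whose levels followed Ror2 most closely over the 15 arrays, among 9917 others, were Thbs3, a thrombospondin, with a Pearson r of 0.93 and a Spearman rho of 0.85, Camk1d, a calmodulin-dependent kinase, with 0.91 and 0.91, and Adgrg2, an adhesion G protein-coupled receptor, with 0.89 and 0.71. The arrays share their genotypes and come from the same deposited set of normalized intensities, and these values describe likeness of pattern only.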

How the data were processed

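Calvarial RNA of 16 male mice was hybridised to Illumina bead arrays of 1 colour. TRIzol extracts, 200 ng per mouse, were turned into biotinylated cRNA, per the labels' protocols. The authors deposited a normalized, linear intensity for each probe, and their background correction and normalization are not given in the sources used here. Another table of scanner signals has 32 columns whose running numbers match no label, so it was not used. Log2 of the deposited intensity was therefore tested in place of scanner signals. Probes were named from the platform annotation (23978 with 1 symbol, 0 with several, 1719 with none), and 23962 matched the RefSeq gene table of GRCm38.p6, with 0 symbols updated. Genes kept had a probe above the array median on at least 3 of 15 arrays, and the brightest probe stood for the gene. A mean per genotype was fitted in limma 3.58.1 under R 4.3.3, with Benjamini-Hochberg adjustment over all 9918 genes and a threshold of 0.05. A second fit took all 25697 probes. The fit was tested on simulated data. Groups came from the genotype labels, replicates were numbered in record order, and precision is limited by how many arrays there are. The receptors and the gene lists were chosen with earlier results of these data known. The text names all 10 receptors, each list gene past the threshold in any of the 8 comparisons, the gene of smallest p of each list in A-KO:R-Het against WT, and the 3 genes most like each called receptor. Alternatives changed normalization, scaling, filter, probe choice, chip, offset, weights, muscle level and the arrays used.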

Additional observations from a re-analysis of the deposited data

Results flagged for a closer look

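The Ror1 probe on R-Het replicate 2 read 5.88, while the nearest of the other 3 R-Het arrays read 6.16. This gap exceeded the critical value of Dixon's test, the single such case among 33 groups of 4 arrays, where chance flags about 5% of groups. The probe lies below the array median on all 15 arrays.

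Fzd7 and Fzd1 were flagged because all A-KO arrays lay below the WT mean while all A-KO:R-Het arrays lay above the R-Het mean. The difference between these effects of Axin2 loss was 0.42 for Fzd7 (limma adjusted p = 0.788) and 0.17 for Fzd1 (adjusted p = 0.878), and neither passed the threshold.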

How the results depend on the processing

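No paired analysis was possible because the labels carry no replicate numbers. Of 1973 recomputed receptor changes, 1913 kept their direction and 60, none of them called, did not. The call of Ror2 in A-KO:R-Het against WT held with further quantile normalization, median centring, no or a stricter filter, averaged probes, chip as a block, array weights, the muscle covariate and an offset of 50. The number of receptors called there was 0 on chip 1 alone, 0 on chip 2 alone, 0 with the damaged array kept in (adjusted p = 0.0562), 0 with only the compared groups fitted (adjusted p = 0.0828), and 0 to 1 with an array left out. With averaged Runx2 allele loss it was 1 with array weights (Fzd1) and 0 to 1 with an array left out, and in the other 6 comparisons 0 throughout. Counts over all genes moved more. A-KO against WT (31 genes) gave 19 with median centring, 0 on each chip, 0 with the damaged array, 119 with array weights, 16 with the offset, 59 with only the compared groups and 4 to 76 with an array left out. R-Het against WT (5) gave 9 with chip as a block, 0 on each chip, 2 with the damaged array, 17 with weights, 1 with the muscle covariate, 8 with the offset, 1 with only the compared groups and 0 to 15 with an array left out. A-KO:R-Het against WT (187) gave 0 on chip 1, 1 on chip 2, 93 with the damaged array, 351 with weights, 117 with only the compared groups and 67 to 225 with an array left out. A-KO:R-Het against A-KO (55) gave 0 on chip 1, 1 on chip 2, 23 with the damaged array, 163 with weights, 21 with only the compared groups and 1 to 85 with an array left out. Against R-Het, and for the interaction, 0 to 1 genes were called with an array left out. Averaged Axin2 loss (64) gave 0 on chip 1, 3 on chip 2, 2 with the damaged array, 218 with weights and 21 to 199 with an array left out, and averaged Runx2 allele loss (162) gave 2, 1 and 326 on chip 1, on chip 2 and with weights, and 83 to 244. Within-chip fits hold fewer arrays, and the cause of the other differences was not tested. The Ror1 probe and 1 Fzd4 probe lay below the array median on all 15 arrays, and the other Fzd4 probe near it, which limits what can be said of these genes.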
